A study of Homo sapiens with 24 samples.

Results

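The replication-dependent histone genes encode the histone proteins that package newly made DNA, and they are described here in SH-SY5Y, a human neuroblastoma cell line with neuronal features. Members were the genes whose array symbol began with HIST1H, HIST2H, HIST3H or HIST4H or with the current names of the same clusters, which gave 70 genes of the 20061 genes with a named feature (a spot of the array). They comprised 6 genes of the linker histone H1 and 17 of H2A, 19 of H2B, 13 of H3 and 15 of H4, the 4 core histones. Of the 70 genes, 56 lie on chromosome 6, 13 on chromosome 1 and 1 on chromosome 12. The brightest feature stood for each gene, 11 genes had more than 1 feature, and 2 of the 70 are pseudogenes.

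All cultures were transfected with the plasmid pCAGIG and RNA was taken 24 h later. In the group called Mock the plasmid was empty. It held the 5' UTR of FMR1, the fragile X gene, with 21 CGG repeats in V21 and with 79 in V79. In V79_8x the labels speak of overexpressing the 79-repeat region and add the mark 8x, which the labels do not explain. Each group had 6 biological replicates, named here by their experiment letter B to G, and each was read on 1 array as log2 intensities. Values are given on that log2 scale, so a difference of 1 is a doubling, and levels of different features are not set against each other.

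Histone genes of this kind are transcribed mainly in S phase, when the factor NPAT acts at their promoters. Their transcripts end in a stem-loop that is bound by SLBP (stem-loop binding protein) and carry no poly(A) tail. They are destroyed when DNA synthesis stops, and a minor part of them can be made with a poly(A) tail. RNA was labelled with a kit whose standard primer anneals to poly(A) tails, so the share of each histone transcript that the arrays could see is unknown. Coding sequences within a class are near-identical copies, so that a feature may read transcripts of several genes of its class, and which genes each feature reads was not tested. In cultures like these, fewer cells in S phase and less histone RNA per cell cannot be told apart.

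The promoters show how the classes differ in sequence. Short motifs were searched on both strands in the window from 250 bases before to 50 bases after each start, in RefSeq sequence of build GRCh38.p14, in which 63 of the 70 genes had an entry. The CCAAT box, bound by the factor NF-Y, was searched by the letters of its name. It stood in all 50 promoters of H1, H2A, H2B and H3 genes, in 3 of 13 H4 promoters (23.1%) and in 35.7% of 27305 promoters of the same length. The octamer bound by POU2F1 was searched by 7 of its letters, ATTTGCA. These stood in 14 of 18 H2B promoters, in 11 of 15 H2A promoters, in 2 of 11 H3 promoters and in 0 of 13 H4 promoters, against 4.23% of every promoter. The entry of H3C4 gave the same octamer and CCAAT box windows as that of H2AC7, so this promoter is counted in both H3 and H2A. The TATA box, searched as TATAAA, stood in 65.1% of the members' promoters and in 12% of every promoter. Some matches are the box of the neighbouring gene. The match before the start of H2BC4, H2BC14 and H2BC17 is the box of H2AC6, H2AC14 and H2AC17, and that of H2AC8 is the box of H2BC8. None of the motifs holds another. Below are windows of 30 bases from genes whose values are given further on, 5' to 3' on the strand of the gene, with the motif in capitals. They were chosen to show an H4 pair with the same TATA box window, the shared octamer between the starts of an H2A gene and its H2B neighbour, and the H2B gene with a rise.
H4C11, TATA box, chr6:27824049-27824078, plus strand: cgccaactgtcgTATAAAggcgctgcctca
H4C12, TATA box, chr6:27831574-27831603, minus strand: cgccaactgtcgTATAAAggcgctgcctca
H4C6, CCAAT box, chr6:26240316-26240345, plus strand: gttcccgcccctCCAATtcagtctccaaaa
H2AC14, octamer on the opposite strand, chr6:27814962-27814991, minus strand: aaatgttattaTGCAAATtaggagtagaat
H2BC14, octamer, chr6:27814963-27814992, plus strand: ttctactcctaATTTGCAtaataacattta
H2BC12, octamer, chr6:27146886-27146915, minus strand: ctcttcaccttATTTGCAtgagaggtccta
A match is a run of letters, not a site shown to be used, and no match says only that these letters are not in the window.

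Of the 70 genes, 65 passed the filter on dim genes (the lowest 25% of genes by mean level were left out) and were tested among 15046 genes. The 5 below it were H1-6, H2AC2P, H2BC1, H2BP1 and H4C14. Differences were tested with limma over all genes with Benjamini-Hochberg adjustment, and "rose" and "fell" mean an adjusted p under 0.05. Of 10 markers of noradrenergic neuroblastoma cells, 8 had a feature and all 8 were above the filter (means of 8.16 to 16.38). All 10 markers of mesenchymal-type neuroblastoma cells were above it too (7.15 to 13.9), as was 1 of 4 glial markers, S100B at 8.41, with GFAP at 6.14.

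Before any comparison of groups, 4 arrays have to be named: Mock D, V21 B, V21 C and V79 B. On each, the histone genes lay above the median of the other 5 arrays of the group. The median difference over the 65 genes was 0.38 on Mock D, 0.55 on V21 B, 0.90 on V21 C and 0.34 on V79 B. On the other 20 arrays it lay between -0.18 and 0.12. None of the V79_8x arrays is among the 4, so each comparison is given with and without them.

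The number of histone genes more than 0.5 above their group was 24 of 65 on Mock D, where 8.19% of all genes were. It was 36 of 65 on V21 B (8.51% of all genes), 44 on V21 C (11.0%) and 20 on V79 B (9.21%). On no other array did it exceed 3 genes. On all 4 arrays 13 of the 65 (20%) were that high, against 384 of 15046 genes (2.55%). The 4 arrays also stood apart in other genes. On Mock D, V21 B, V21 C and V79 B, 7.62%, 8.48%, 14.1% and 10.3% of all genes lay more than 0.5 below their group. Of the 65 histone genes, 0, 0, 1 and 1 did.

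**Figure D1:**
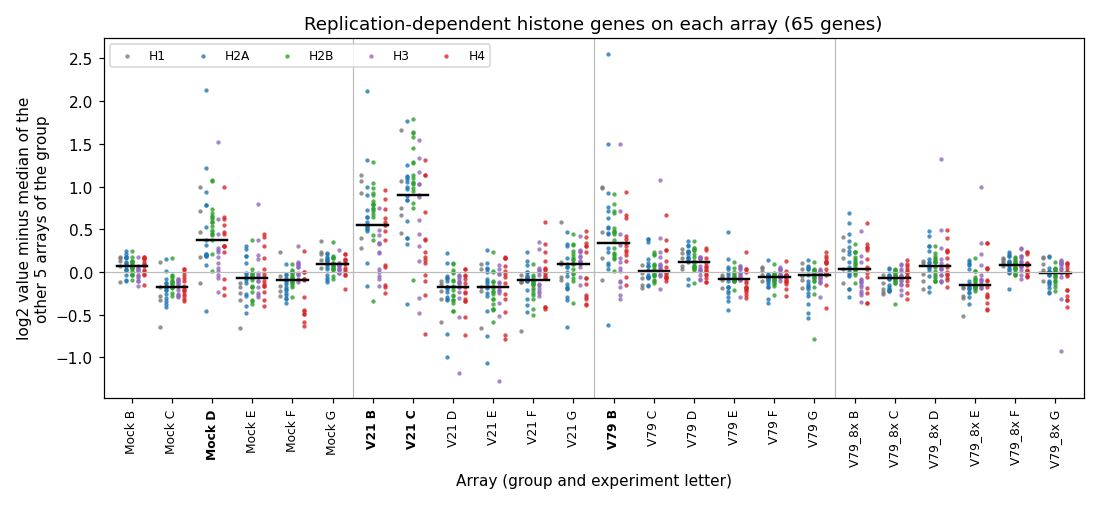
Log2 value of each of 65 histone genes minus the median of the other 5 arrays of its group (vertical axis), for each of the 24 arrays (horizontal axis, group and experiment letter; the 4 named arrays in bold), coloured by class; black lines are medians over the genes. The medians of Mock D, V21 B, V21 C and V79 B lie at 0.38, 0.55, 0.90 and 0.34, and those of the other 20 arrays between -0.18 and 0.12.

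The classes took different parts in this. H2B genes, which pair with H2A in the nucleosome, had medians of 0.58, 0.79, 1.10 and 0.45 on Mock D, V21 B, V21 C and V79 B. H4 genes had 0.31, 0.51, 0.21 and 0.33 in the same order, and H3 genes 0.18, 0.24, 0.88 and 0.05. V21 C was thus the array on which H3 genes were also high, and on which H4 genes were least so.

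The 13 genes high on all 4 arrays were H1-3, H1-4, H2AC6, H2AC7, H2AC16, H2AC17, H2AC21, H2BC7, H2BC11, H2BC15, H2BC17, H2BC21 and H4C1. H2AC16 had the widest range of all members: its values in Mock ran from 11.05 over a median of 11.34 to 13.45 on Mock D. In V79 they ran from 10.66 over 10.83 to 13.35 on V79 B, and in V79_8x from 10.54 over 10.68 to 11.32. The next highest arrays of Mock and V79 lay at 11.59 and 10.93, so a single array stood far above the rest in both. The linker histone gene H1-4 showed the same arrays: its highest values were 15.12 in Mock (array D) and 14.85 in V79 (array B), and the highest values of the remaining arrays in those groups were 14.27 and 14.02. H4C1, an H4 gene, was up by 1.0, 0.96, 1.14 and 0.94 on Mock D, V21 B, V21 C and V79 B, and its dimmer feature by 1.96, 2.12, 1.22 and 1.82.

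Other members did not share the shift. H4C3 differed by -0.19, -0.15, 0.14 and -0.15 on the 4 arrays, and H2AC25 was lower on all 4 (-0.46, -0.16, -0.38 and -0.62). H4C11 was up on 3 of the 4 arrays, but on V21 C it had the lowest value of its group (14.22, where the other V21 arrays ran from 14.57 to 15.54). The 10 genes that were never more than 0.5 up were H1-1, H2AC25, H2BC12, H3-4, H3C1, H3C3, H4C3, H4C9, H4C13 and H4C15.

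Other RNAs known to lack a poly(A) tail moved in part with them. Over 261 such RNAs (small nucleolar and Cajal body RNAs and a few longer ones) the median difference was -0.02 on Mock D, 0.23 on V21 B, 0.81 on V21 C and -0.08 on V79 B. More than 0.5 up on all 4 arrays were 13 of the 261 (4.98%), against 2.55% of all genes tested and 20% of the histone genes. RPPH1, the RNA of ribonuclease P, was up by 1.61, 2.12, 2.36 and 1.20, and TERC, the RNA of telomerase, by 1.89, 2.13, 1.70 and 2.35. These were among the highest of the list, and others differed: RN7SK, an RNA that binds a transcription elongation factor, stood at -0.01, 0.40, 0.74 and -0.38. RN7SL1, the RNA of the signal recognition particle, stood at -0.21, 0.40, 0.81 and 0.04, and RNU6ATAC, of the minor spliceosome, at -0.48, -0.08, 0.46 and -0.26. The 10 genes outside the members that were furthest up on all 4 arrays were HOXA9, ZFP36L1, SNORA60, HOXA10, RNF222, SEMA6B, TERC, C21orf58, FAM118A and SYNGR4, with HOXA9, a homeobox gene, up by at least 2.21 on each. What part these RNAs and the 4 arrays' preparation have in the histone values was not tested.

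In V79_8x against Mock, 11 of the 65 histone genes fell and 0 rose, while 0.485% of all genes tested fell and 1.71% rose. The 11 were the H4 genes H4C3, H4C6, H4C8, H4C9, H4C11, H4C12, H4C13 and H4C15 and the H2A genes H2AC12, H2AC14 and H2AC15. By class, 8 of 14 H4 genes, 3 of 16 H2A genes and none of 5 H1, 17 H2B and 13 H3 genes fell. The median difference was -0.26 over the 65 genes and 0.01 over all genes tested, with -0.52 in H4, -0.51 in H1, -0.29 in H2A, -0.25 in H2B and -0.23 in H3. In 14 of the 65 genes every V79_8x array lay below every Mock array, as it did in 0.804% of all genes tested.

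H4C6 had the smallest p. Its level ran from 12.97 over a median of 13.50 to 13.69 in Mock, and from 12.15 over 12.54 to 12.84 in V79_8x. The groups did not overlap, and the difference was -0.94 ± 0.13 (SE; 1.91-fold lower; limma, adjusted p = 3.8e-05). In V21 H4C6 ran from 12.76 to 13.57 (median 13.04) and in V79 from 12.66 to 13.08 (median 12.86), so that both groups overlapped with Mock and with V79_8x.

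H4C11 had the largest difference among the 11. Its Mock values were 15.57, 15.36, 15.70, 15.43, 14.80 and 15.39 on arrays B to G, and its V79_8x values were 14.81, 14.38, 14.24, 13.82, 14.26 and 13.85. The lowest Mock array, F, just reached the highest V79_8x array, B, so these groups overlapped by 1 array on each side. The difference was -1.15 ± 0.19 (2.22-fold lower; limma, adjusted p = 0.00053). H4C12, which has the same TATA box window, fell from 15.48 ± 0.24 to 14.66 ± 0.22 (SD, n = 6; limma, adjusted p = 0.00011) with no overlap, and its other feature gave a difference of -1.19.

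Another 3 H4 genes moved by a like amount. H4C8 fell by 0.83 (13.72 ± 0.31 to 12.89 ± 0.18, limma adjusted p = 0.0005), H4C9 by 0.80 (13.56 ± 0.28 to 12.77 ± 0.14, adjusted p = 0.00011) and H4C15 by 0.77 (14.28 ± 0.26 to 13.51 ± 0.20, adjusted p = 0.00024). None of these overlapped between Mock and V79_8x. H4C15 lies on chromosome 1 and was the only one of 11 tested genes there to fall, whereas 10 of 53 fell on chromosome 6. The medians were -0.06 and -0.31. H4C15 was also the only H4 gene tested on chromosome 1, so the chromosomes differ in their share of H4 genes as well. Whether they differ within a class was not tested. H4C3 and H4C13 fell less, by 0.31 ± 0.07 and 0.41 ± 0.10 (adjusted p = 0.012 and adjusted p = 0.025), and with the mean of its features H4C13 did not pass (adjusted p = 0.12).

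The 3 H2A genes were close to each other. H2AC12 ran from 15.38 over a median of 15.70 to 15.86 in Mock and from 14.84 over 15.06 to 15.14 in V79_8x. H2AC14 ran from 15.83 over 15.97 to 16.09 and from 15.07 over 15.32 to 15.65, and H2AC15 from 15.76 over 15.98 to 16.12 and from 15.10 over 15.30 to 15.57. In none of the 3 did the groups overlap. H2AC12 fell by 0.66, and H2AC14 and H2AC15 each fell by 0.64 (limma, adjusted p = 0.0011, 0.0015 and 0.00081).

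**Figure D2:**
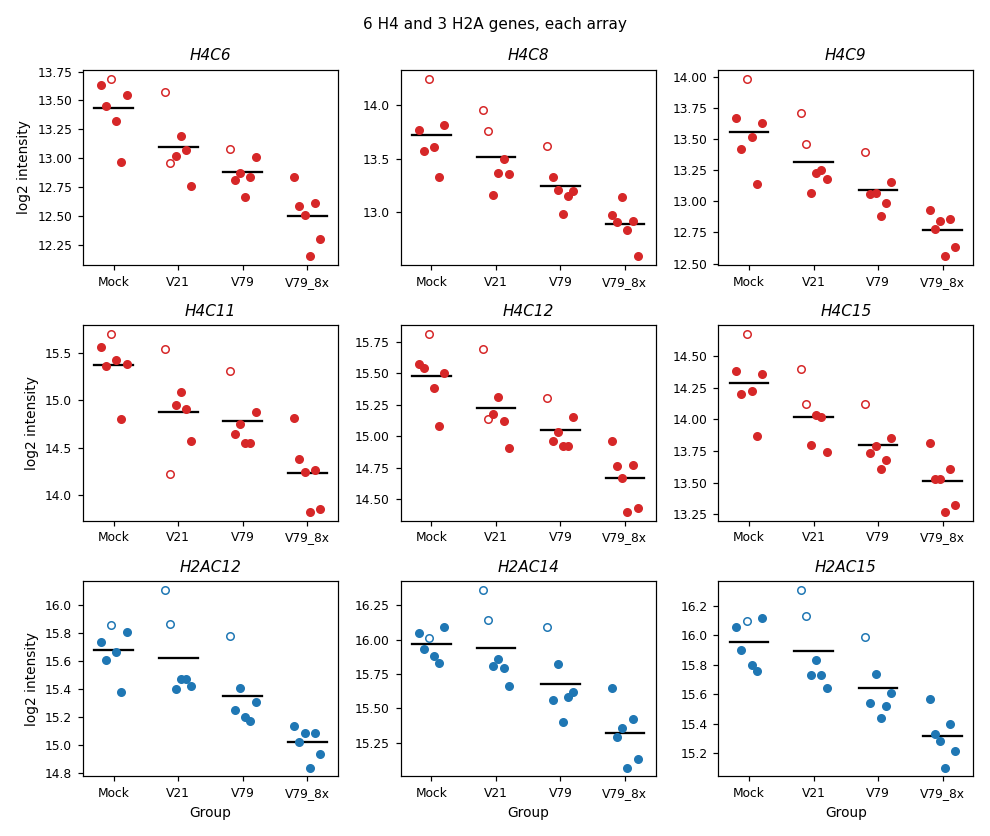
Log2 intensity (vertical axes) of 6 H4 genes (red) and 3 H2A genes (blue) on each array of the 4 groups; black lines are group means, and open circles are Mock D, V21 B, V21 C and V79 B. In each of the 9 genes the group means descend from Mock over V21 and V79 to V79_8x, for example from 15.38 to 14.23 in H4C11.

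In 9 of the 11 genes, all but H4C3 and H4C13, the group means descended in the order Mock, V21, V79, V79_8x. The same order was found in 13 of the 65 members (20%) and in 3.64% of all genes tested, and without the 4 arrays in 26 members (40.0%) and 6.37%. The 11 genes had been chosen by the first and last of these groups, and in none of the 9 did a step between neighbouring groups pass the test. The 9 genes also shared their low and high arrays: all 9 were lowest on F within Mock and highest on B within V21 and within V79. Within V79_8x, 8 of the 9 were lowest on E and highest on B. Features of a class may read the same transcripts, so the 9 genes may not be separate readings, which was not tested.

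Without the 4 arrays, 23 of the 65 genes fell and 0 rose in V79_8x against Mock, where 1.58% of all genes fell and 2.39% rose, and the 11 above were all among the 23. The additional 12 were the linker histone genes H1-3 and H1-4, the H2A genes H2AC6, H2AC8 and H2AC16, the H2B genes H2BC6 and H2BC7, the H3 genes H3C2, H3C7 and H3C11 and the H4 genes H4C4 and H4C5. The median over the 65 genes was -0.21, less far from 0 than with all arrays. H4C11 then differed by -1.08, the largest fall among all genes tested in these 20 arrays. Of the 11 calls on all arrays, 10 held when each of the 12 arrays was left out in turn, and H4C13 was lost with 4 of them (adjusted p of up to 0.085, without V79_8x B).

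**Figure D3:**
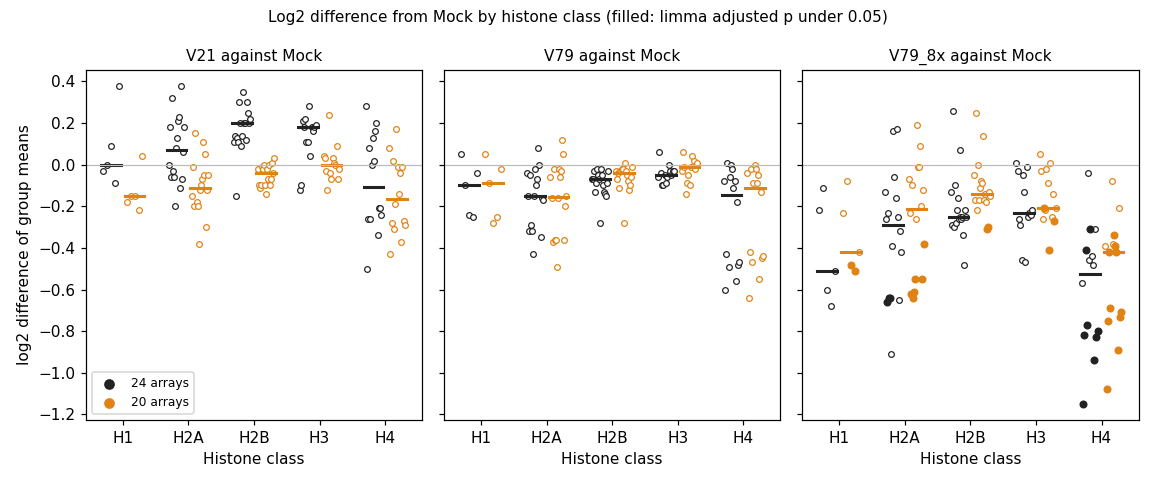
Log2 difference from Mock (vertical axes) of each tested histone gene by class, in V21, V79 and V79_8x, over all 24 arrays (black) and over the 20 arrays without Mock D, V21 B, V21 C and V79 B (orange); bars are class medians and filled points passed limma's adjusted p of 0.05. In V79_8x 11 points are filled in black and 23 in orange, and in V21 the medians of H2A, H2B and H3 lie above 0 in black and at or below it in orange.

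In V79_8x against V21, 14 of the 65 genes fell and 1 rose, where 0.678% of all genes fell and 2.19% rose. H4C3, H4C5, H4C6, H4C8, H4C9, H4C12, H4C13, H4C15, H2AC8, H2AC12, H2AC14, H2AC15, H3C2 and H1-5 fell, by 0.32 (H4C3) to 0.89 (H1-5). The median difference was -0.45 over the 65 genes and 0.03 over all genes tested. Here the V21 group holds 2 of the 4 arrays, and without all 4 the median was -0.19, with 14 genes lower and 2 higher past the threshold (0.871% and 2.21% of all genes). Of the 15 calls 12 remained, H1-5, H2AC8 and H4C5 were lost, and H2BC7, H4C1, H4C11 and H2AC19 were added, the last as a rise. With all arrays but V21 E, 26 members passed, as did 4.84% of all genes (2.86% with every array).

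H1-5, H2AC8, H4C5 and H3C2 were not among the 11 genes above, and for 3 of them the call was lost when certain single arrays were left out. H1-5, a linker histone gene, had V21 values of 13.13, 13.65, 11.99, 11.92, 11.89 and 12.58 on arrays B to G against 11.27 to 11.83 in V79_8x. Every V21 array was higher, but B and C were higher by far, and the fall of 0.89 ± 0.24 (limma, adjusted p = 0.043) was lost with 9 of 12 arrays left out (up to 0.13, without V21 B). H2AC8 was lost with 6 of 12 (with V21 B left out its adjusted p was 0.097) and H4C5 with 1, again V21 B (0.062). H3C2, an H3 gene, ran from 14.39 over 14.64 to 15.86 in V21 and from 13.80 over 14.08 to 14.32 in V79_8x, without overlap, and fell by 0.74 ± 0.17 (limma, adjusted p = 0.011), a call kept with each array left out in turn but lost in a fit of those groups alone (adjusted p = 0.13).

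H2BC12, an H2B gene, was the 1 histone gene to rise. Its V21 values were 12.19, 12.44, 12.53, 12.68, 12.53 and 12.17 on arrays B to G, and its V79_8x values 12.92, 12.76, 12.73, 12.96, 12.84 and 12.79. Every V79_8x array lay above every V21 array, and the difference was +0.41 ± 0.09 (limma, adjusted p = 0.0064). Its features disagreed, however: the other one lay at 12.70 in V21 and 12.33 in V79_8x, a difference of -0.37. That feature was up on all 4 of the named arrays (by 0.41, 0.72, 1.14 and 0.22), and the feature that rose was not (0.01, -0.34, -0.09 and 0.01). With the mean of both features the call was lost (adjusted p = 0.9). The direction of H2BC12 is therefore not settled by these arrays.

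In V79_8x against V79, which in the labels differ by the overexpression and its mark, 2 of the 65 histone genes fell, H4C3 and H4C13, and 0 rose, where 0.133% of all genes fell and 1.02% rose. H4C13 ran from 15.87 over a median of 15.95 to 16.15 in V79 and from 15.26 over 15.60 to 15.82 in V79_8x, without overlap (-0.42 ± 0.10; limma, adjusted p = 0.033). H4C3 ran from 17.75 over 17.90 to 18.03 in V79 and from 17.45 over 17.62 to 17.82 in V79_8x, with 1 V79 array, B, inside the range of V79_8x (-0.29 ± 0.07; adjusted p = 0.033). Both calls were fragile: H4C13 was lost with 7 and H4C3 with 9 of the 12 arrays left out in turn (up to 0.11). No histone gene passed without V79 C, V79 G, V79_8x B, V79_8x C or V79_8x E. Without the 4 arrays both passed and H3C2 was added (0.346% of all genes fell and 1.48% rose). The median over the members was -0.21 with all arrays and -0.13 without the 4, against 0 over all genes tested, with 13 of 14 H4 genes lower in both.

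In V79 against V21, V21 against Mock and V79 against Mock, 0 histone genes passed the test (limma), with 6, 4 and 9 of the 65 at an unadjusted p under 0.05, as were 3.81%, 3.23% and 2.7% of all genes. Without the 4 arrays, 2, 12 and 14 of the 65 were, as were 334, 255 and 640 of 15046 genes. The 12 and the 14 were all lower than in Mock. The share of all genes that passed the adjusted threshold was 0.00665%, 0.0% and 0.00665%, and without the 4 arrays 0.0%, 0.0% and 0.00665%. In V79 against V21 the median over the members was -0.23 with all arrays and -0.03 without the 4, of which V21 holds 2. In V21 against Mock it was 0.12 with all arrays and -0.07 without the 4, so that the direction turned. In V79 against Mock it was -0.08 and -0.06.

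The members with the smallest p in these 3 comparisons were H4 and H2A genes that fell in V79_8x. In V79 against Mock, H4C6 differed by -0.56 ± 0.13 and H4C15 by -0.49 ± 0.12 (limma, adjusted p = 0.83 and adjusted p = 1). In V21 against Mock, H4C6 differed by -0.34 ± 0.13 and H4C11 by -0.50 ± 0.19 (both adjusted p = 0.78). In V79 against V21, H2AC12 differed by -0.27 ± 0.12 and H2AC15 by -0.26 ± 0.11 (both adjusted p = 0.83). Each group enters several comparisons, so their values are not independent of each other.

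Neighbouring genes of different classes did not all show differences of the same size. Many H2A and H2B genes stand as pairs that are read in opposite directions from 1 stretch of DNA, and 11 such pairs were among the members. In V79_8x against Mock, H2AC14 fell by 0.64 while its neighbour H2BC14, whose start lies 243 bases away, differed by -0.10. H2AC15 fell by 0.64 and H2BC15 differed by -0.28. In the pair of H2AC7 and H2BC7 the order was the other way, with differences of -0.32 and -0.48, neither past the threshold. The pairs given here were picked after their values were seen, and among the other pairs neither class was always the lower. Whether the partners of a pair differ from each other was not tested.

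Where a gene had several features, these mostly shared a direction, with exceptions beside H2BC12. In V79_8x against Mock the brightest feature of H2AC6, an H2A gene, differed by -0.65 (limma, adjusted p = 0.057) and its others by +0.52 and -0.19. The feature at +0.52 was also the one that lay lower on the 4 named arrays, by 0.52 to 0.70 (-0.52, -0.55, -0.70 and -0.57). For H4C13 the dimmer feature gave -0.48 beside -0.41, and for H4C4 the features gave -0.44 and -0.50.

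A second pattern across arrays cut through all groups. Some members were high on the same set of 8 arrays, 2 of each group: Mock D and E, V21 F and G, V79 B and C, and V79_8x D and E. The labels do not name this set, it was seen in the values, and 2 of its arrays are among the 4 named above. H3C12, an H3 gene, lay at 12.26 and 11.54 on Mock D and E and at 10.48 to 10.75 on the other Mock arrays. In V79_8x it lay at 11.68 and 11.36 on D and E and at 9.55 to 10.48 on the others. Over the 20 arrays without the 4, the 6 set arrays that remain lay above the others of their group by 1.20 on average, with no overlap within any group. V21 B and V21 C lay at 11.58 and 11.88 among the set arrays of V21 (11.63 and 11.83).

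Over the same 20 arrays, 8 of the 65 members lay higher on every set array than on every other array of the group, in all 4 groups (H3C12, H4C2, H3C6, H2AC13, H4C7, H2AC21, H3-4 and H3C1), as did 3.46% of all genes tested, and 0 lay lower in all 4 groups (4.57%). H4C2 was higher by 0.66 on average, and the rest of the 8 by 0.21 to 0.46, apart from H3C12, given above. The set was itself seen in these values, so such counts describe it and do not test it. Of the 11 genes that fell in V79_8x against Mock, none was among these 8. The set holds 2 of the 6 arrays of each group. Without the 4 arrays it holds 1 of 5 in Mock and in V79, 2 of 4 in V21 and 2 of 6 in V79_8x, so it is then not balanced over the groups. With the set as a block, 13 members fell in V79_8x against Mock on all arrays (0.631% of all genes fell) and 29 without the 4 (2.27%).

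**Figure D4:**
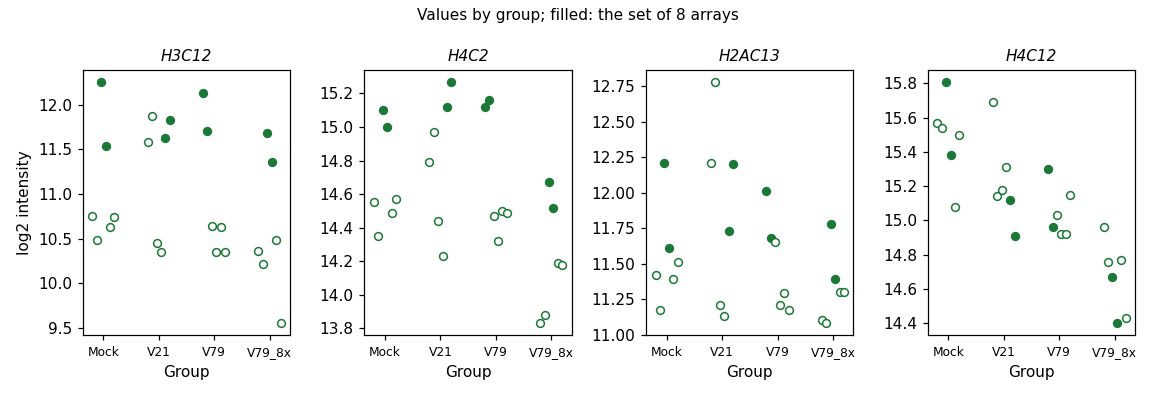
Log2 intensity (vertical axes) of H3C12, H4C2, H2AC13 and H4C12 on each array of the 4 groups; filled circles are the set of 8 arrays, 2 in each group. In H3C12, H4C2 and H2AC13 the filled circles lie above the open ones of their group, apart from V21 B and V21 C, and in H4C12 they lie among them.

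Genes that make and process histone transcripts were measured beside them. Of 25 genes for histone gene transcription and 3' end processing, 2 fell in V79_8x against Mock and 0 rose, with a median of -0.02. NFYA, which encodes part of NF-Y, differed by -0.72 on its brightest feature (limma, adjusted p = 0.00015) and by -0.06 on its other feature, so both were lower but the size of the difference depends on the feature. CCNA2, cyclin A2 of S and G2 phase, fell by 0.27 ± 0.06 (adjusted p = 0.016), and its 10 features gave -0.25 to -0.31. SLBP did not pass in any of the 6 comparisons, with differences from -0.26 to 0.26.

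Of 12 genes for the translation and decay of histone transcripts, 1 rose and 0 fell in V79_8x against Mock. It was PNPT1, a polynucleotide phosphorylase of mitochondria that is also induced by interferon, at +0.97 ± 0.12 (limma, adjusted p = 4.2e-06), and its other features gave +0.66 and +0.52. Against V79 and V21 it rose by 0.93 and 0.98. No other member of that list passed in any comparison.

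The replication-independent histones are also made outside S phase. Of the 10 tested, 0 passed in any of the 6 comparisons (limma), and 1 gene in V79_8x against V21 and 0 in the other 5 had an unadjusted p under 0.05. In V79_8x against Mock the smallest p was that of H2AX at -0.11 ± 0.06 (limma, adjusted p = 0.73). Their median in that comparison was -0.06. Of 19 histone chaperones, which carry histones to DNA, 0 passed in any comparison (limma), with 1 at an unadjusted p under 0.05 in V79_8x against Mock, 1 in V79_8x against V21 and 0 in the others, and their median against Mock was also -0.06. Without the 4 arrays, 3 of the 10 and 4 of the 19 had an unadjusted p under 0.05 (limma) in V79_8x against Mock. So had 2085 of 15046 genes. Of these lists 0 passed, 9 of the 10 and 16 of the 19 were lower, and both medians were -0.05.

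Of 27 S phase and DNA replication genes, 0 passed in V79_8x against Mock (3 had an unadjusted p under 0.05 in limma), where 25 were lower and the median was -0.08. The one with the smallest p was GINS4, a subunit of the replication helicase, at -0.28 ± 0.09 (limma, adjusted p = 0.11). Without the 4 arrays, GINS4 fell by 0.32 and MCM6, another subunit of that helicase, by 0.25 (adjusted p = 0.015 and 0.016), 27 of 27 were lower and the median was -0.12. Of the 261 RNAs without a poly(A) tail 1 fell in V79_8x against Mock, SCARNA18 at -0.42 ± 0.11 (adjusted p = 0.035), and 9 without the 4 arrays, with a median of -0.08 both times. Whether these lists differ from the histone genes in response was not tested.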

How the data were processed

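Gene expression was measured on 24 arrays of 1 colour (4 groups of 6), from 100 ng of RNA each labelled with Cy3, per the labels. The deposited values are log2 intensities of 62976 features on each array, already made equal in distribution by the authors (the sorted deposited values differ by at most 0.01 between arrays). The normalisation method is not stated, and scanner files and detection flags were not used here. A shift of most genes in 1 direction could not be seen in such values, and for arrays their number limits the precision.

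Features were named through the platform annotation and RefSeq tables (33705 by accession, 644 by former symbol, 2702 by the platform's symbol, 25925 unnamed). The brightest feature by the mean over all arrays stood for a gene, and genes with a mean below 6.43, the dimmest 25%, were left out. limma 3.58.1 in R 4.3.3 (lmFit, eBayes) fitted the 4 groups together with no covariate, two-sided, with Benjamini-Hochberg adjustment over 15046 genes and a threshold of 0.05, after a test on simulated data. Python 3.11.15 and pandas 2.3.3 did the rest.

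Members, gene lists and tests were chosen with earlier results of these data known. Named with values were members past the threshold (or the 2 with the smallest p), per class those brightest and widest in range, up to 2 genes per list, SLBP, and 10 non-members high on the 4 arrays. H2AC7, H2AC25, the members of opposed pairs, RPPH1, RN7SK, RN7SL1 and RNU6ATAC were added after their values were seen. The lists were those for transcription and processing, for translation and decay, the replication-independent histones, the chaperones, the S phase genes and the RNAs without a poly(A) tail.

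Experiment letters recur in every group. Of 36 pairs of arrays with the same letter in different groups, 16 had a correlation of residuals above 0.1. Of 180 pairs with different letters, 75 did. The letters were not taken as pairs in the main fit, which does not show that their arrays were prepared apart. Alternatives were the replicate block, array weights, a fit of 2 groups at a time, the mean of a gene's features, other filters, leaving out arrays, and the set of 8 arrays as a block, which was added after seeing the data.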

Additional observations from a re-analysis of the deposited data

Results flagged for a closer look

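In 9 cases, of 116 groups of 6 arrays looked at, 1 array stood apart from its group by more than Dixon's 95% limit for 6 samples. About 1 in 20 such groups is flagged by chance alone. In 8 of the 9 the array was Mock D or V79 B. The median level over the histone genes was 13.35 on V79 B, the highest of its group. H1-4, a linker histone gene, was highest at 15.12 on Mock D and at 14.85 on V79 B. H2AC16, an H2A gene, was highest at 13.45 on Mock D, at 13.35 on V79 B and, in V79_8x, at 11.32 on V79_8x B. H2BC9 was highest on Mock D at 14.47, H4C1 on Mock D at 13.26, and H3C13 on V79 B at 15.70. No V21 array was past the limit in the 29 items looked at. These were the median over the members, and the members called or chosen by the rule for named genes. The other members were not looked at. The limit looks at the gap beside a single array, and V21 B and V21 C were high together. It therefore cannot show whether V21 is free of arrays that stand apart.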

How the results depend on the processing

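Shares of all genes tested that passed under the same fit are given in brackets. The members past the threshold in V79_8x against Mock, 11 on all arrays (2.2%), were 30 with array weights (6.96%) and 19 with a fit of those groups alone (2.57%). Without the 4 arrays they were 23 (3.97%), as they were with the replicate block added (4.12%), and 29 with the set of 8 arrays as a block (5.88%). In V79_8x against V79 they went from 2 (1.15%) to 8 with array weights (3.06%), 5 with a fit of those groups alone (1.36%) and 1 with the mean of all features (1.22%). Without the 4 arrays they went to 4 with the replicate block (1.92%) and 5 with the set of 8 as a block (2.23%). In V79_8x against V21 they went from 15 (2.86%) to 9 with a fit of those groups alone (1.62%). With 1 array left out at a time the counts ran from 0 to 2 in V79_8x against V79, where the share of all genes ran from 0.977% to 1.08%. In V79_8x against V21 they ran from 11 to 26, and the share from 2.12% to 4.84%. 

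The median difference in V21 against Mock, 0.12 on all arrays, turned to -0.07 without the 4 arrays (also with either block) and to -0.05 with array weights. It ran from -0.02, without V21 C, to 0.20 with 1 array left out. Without the 4 arrays the H2A median turned to -0.11, the H2B median to -0.04 and the median log2 difference of the H3 genes in V21 against Mock to -0.0045. The median in V79 against V21 moved from -0.23 to -0.03, -0.02 with the replicate block and -0.01 with the set of 8 as a block. That in V79_8x against V21 moved from -0.45 to -0.19, to -0.19 and -0.17 with the same blocks, and to -0.22 with array weights. Why these values moved was not tested. The experiment letters were not taken as pairs. Correlations of residuals ran from -0.66 to 0.77 between same-lettered arrays and from -0.75 to 0.86 between arrays of different letters. The medians by letter ran from -0.13 (D) to 0.31 (B). Whether arrays of the same letter were prepared together was not tested. On all arrays the replicate block gave 12 members in V79_8x against Mock (2.32% of all genes), 2 in V79_8x against V79 (1.23%) and 17 in V79_8x against V21 (3.58%). All 11 falls in V79_8x against Mock kept their direction in every setting run.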
